A study of Mus musculus with 16 samples.

Results

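A set of 2009 genomic regions carried an H3K27ac peak in untreated macrophages and again in macrophages given IFNγ together with the PARP inhibitor PJ34, but in neither of the single treatments. These regions were selected on the measured peaks. The H3K27ac peak lists of the 4 conditions were merged wherever peaks shared at least 1 bp, which gave 55218 regions, and the 2009 (3.64%) with peaks of Control and IFNγ 1 h+PJ34 and none of IFNγ 1 h or PJ34 were kept. Presence and absence in the 4 lists, and with them the peak scores, are therefore what defined the set and are described without a test.

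Bone marrow-derived macrophages (BMDMs), primary macrophages grown from the marrow of C57Bl6 mice aged 8 to 12 weeks in DMEM with 20% serum and LCCM, were left untreated (Control), given 100 ng/mL IFNγ for 1 h, given 20 µM PJ34, or given 20 µM PJ34 followed after 1 h by 100 ng/mL IFNγ for 1 h. The labels do not say how long PJ34 was given in the PJ34-only condition. No genetic change is named in any group. Chromatin was immunoprecipitated for H3K27ac in 2 replicates of each condition beside 2 input samples, 16 samples in all, and the labels do not say whether replicates came from separate mice. One peak list per condition was available, built from both replicates, so no result below has an error over replicates and no p-value is given. PJ34 blocks the enzymatic activity of PARP-1 and of related family members, so the treatment is not a model of the loss of 1 enzyme.

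H3K27ac, acetylation of lysine 27 on histone H3, is laid down by p300 and CBP at active promoters and enhancers. IFNγ signals through JAK kinases to factors that bind the GAS element, a short sequence at genes such as those for guanylate-binding proteins, antigen presentation and chemokines. PARP-1 attaches ADP-ribose to itself, to histones and to transcription factors, and PJ34 is used to block that reaction.

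The windows below are from the plus strand of the mouse genome (GRCm38, the build called mm10 by the authors; sequence from RefSeq) centred on the IFNγ 1 h+PJ34 summit. They show members that ranked among the highest of the set by the lower of their percentiles in both lists. One beside Dnmt3a was left out because it overlapped an untranslated region. Each is named for its nearest protein-coding start site. Capitals mark matches on either strand to the 9 motifs searched: TTCNNNGAA (GAS), GAANNNTTC (the GAS with its ends exchanged, as a control), GAAANNGAA (a partial interferon response element), GGAANNGAA (a partial ETS-IRF site), GAGGAAGT (PU.1), TGANTCA (AP-1), TTGCNNAA (C/EBP), GGGANTTCC (NF-kB) and CACGTG (E-box).

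Prdm1 region, chr10:44589048-44589248 (+): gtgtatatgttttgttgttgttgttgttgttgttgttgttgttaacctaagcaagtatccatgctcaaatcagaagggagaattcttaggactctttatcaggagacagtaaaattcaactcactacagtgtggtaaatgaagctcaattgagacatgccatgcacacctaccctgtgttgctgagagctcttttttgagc
Parp2 region, chr14:50824406-50824606 (+): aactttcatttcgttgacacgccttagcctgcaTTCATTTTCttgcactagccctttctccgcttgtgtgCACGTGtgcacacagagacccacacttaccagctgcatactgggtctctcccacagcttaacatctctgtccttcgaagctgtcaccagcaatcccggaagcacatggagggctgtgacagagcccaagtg
Bmp2 region, chr2:133480865-133481065 (+): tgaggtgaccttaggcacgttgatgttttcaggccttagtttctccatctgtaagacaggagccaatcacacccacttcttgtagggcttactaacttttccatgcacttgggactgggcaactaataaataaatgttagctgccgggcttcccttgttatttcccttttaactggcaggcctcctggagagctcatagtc
Wdr26 region, chr1:181226594-181226794 (+): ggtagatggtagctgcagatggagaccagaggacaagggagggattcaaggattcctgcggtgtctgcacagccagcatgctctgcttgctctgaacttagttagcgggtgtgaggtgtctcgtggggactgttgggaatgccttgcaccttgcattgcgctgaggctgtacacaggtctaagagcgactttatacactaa
Gdi2 region, chr13:3526116-3526316 (+): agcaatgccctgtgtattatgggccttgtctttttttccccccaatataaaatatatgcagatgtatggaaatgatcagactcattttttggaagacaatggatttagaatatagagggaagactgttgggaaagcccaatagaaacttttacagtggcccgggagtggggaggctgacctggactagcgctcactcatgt

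Of these 5 windows, only the Parp2 region's held a match, TTCATTTTC to the partial interferon response element and CACGTG to the E-box. The motif shares given below use 300 bp windows at the leading summit, and in that window the Prdm1 region also held an E-box match. The next windows are the 4 members with the highest lower percentile among those whose 300 bp window held a GAS match. They were chosen after the sequences had been seen, to show the element found at IFNγ-responsive genes.

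Cxcr4 region, chr1:128632865-128633065 (+): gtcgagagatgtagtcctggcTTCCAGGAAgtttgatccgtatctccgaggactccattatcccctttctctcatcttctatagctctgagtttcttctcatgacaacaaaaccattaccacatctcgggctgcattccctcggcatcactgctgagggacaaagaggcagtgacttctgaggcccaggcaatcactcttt
Gmds region, chr13:32545266-32545466 (+): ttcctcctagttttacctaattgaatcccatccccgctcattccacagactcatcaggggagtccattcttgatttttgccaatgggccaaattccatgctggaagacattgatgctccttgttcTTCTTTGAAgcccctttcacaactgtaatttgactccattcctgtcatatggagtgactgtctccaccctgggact
Ahr region, chr12:35319453-35319653 (+): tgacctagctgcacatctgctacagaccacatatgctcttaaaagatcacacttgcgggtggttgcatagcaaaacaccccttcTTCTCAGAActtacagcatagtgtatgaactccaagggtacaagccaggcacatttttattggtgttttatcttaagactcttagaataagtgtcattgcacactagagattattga
Cask region, chrX:13574668-13574868 (+): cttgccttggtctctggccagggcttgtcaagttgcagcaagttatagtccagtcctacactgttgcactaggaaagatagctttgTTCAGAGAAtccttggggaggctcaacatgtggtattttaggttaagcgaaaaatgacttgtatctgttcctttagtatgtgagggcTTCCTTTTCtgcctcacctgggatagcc

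The GAS match of the Cxcr4 region read TTCCAGGAA, and those of the Gmds, Ahr and Cask regions read TTCTTTGAA, TTCTCAGAA and TTCAGAGAA. Cxcr4 encodes a chemokine receptor, Ahr a ligand-activated transcription factor, Gmds an enzyme of fucose synthesis and Cask a scaffold kinase. The Gmds and Ahr regions were intergenic and far from the start sites they are named for, at 206.6 and 215.5 kb. The Cask region was in an intron of Cask, 48.0 kb from the start site. The Cxcr4 region (chr1:128632771-128633508, 40.7 kb upstream of the start site) had a fold enrichment of 9.59 in Control and 11.2 in IFNγ 1 h+PJ34, and the nearest IFNγ 1 h peak was 39.5 kb away. A match to letters is a description of the sequence and not evidence that a factor was bound.

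The members were mostly low-scoring peaks. Of the 38276 regions with a Control peak, 32.3% had no IFNγ 1 h peak, 26.0% had no PJ34 peak, and 5.25% belonged to the set. Of the 34184 regions with an IFNγ 1 h+PJ34 peak, 28.9% had no IFNγ 1 h peak and 28.9% had no PJ34 peak, and 5.88% belonged to the set. Absence from 1 other list was thus common in both carrying lists. Both absences also coincided in 6513 regions of Control alone and in 5758 of IFNγ 1 h+PJ34 alone. The members are the regions with both absences and a peak of both carrying lists.

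Fold enrichment is the signal at the summit over the local background as the peak caller wrote it, and a score percentile is the rank of a peak among all peaks of its own list, with 100 the highest. Over all peaks the median fold enrichment was 6.1 in Control, 5.5 in IFNγ 1 h, 5.3 in PJ34 and 6.3 in IFNγ 1 h+PJ34. In the same order the lists held 43533, 40708, 44090 and 42960 peaks and covered 52.6, 42.5, 47.9 and 44.1 Mb. The part of these differences between the lists in the set was not tested. The median member had a fold enrichment of 4.22 in Control (quartiles 3.42 and 5.63) and 4.58 in IFNγ 1 h+PJ34 (quartiles 3.67 and 6.25). Its score percentile was 31.3 in Control (quartiles 17.7 and 45.4) and 33.4 in IFNγ 1 h+PJ34 (quartiles 19.8 and 48.4). Regions with a peak in all 4 lists had median percentiles of 74.6 and 72.1. The leading percentile, that of a region's highest-ranked peak, had a median of 43.2 among the members. It was 35.2 in regions of Control and PJ34 only and 34.2 in those of IFNγ 1 h and PJ34 only. In regions of IFNγ 1 h and IFNγ 1 h+PJ34 only it was 51.3. Low scores were thus not particular to the members. Of the 2009 members, 121 (6.02%) lay above percentile 50 in both lists, against 70.5% of the regions of all 4 lists, and 2 members lay above percentile 75 in both.

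The position of the pair of peaks within a member was close. The Control and IFNγ 1 h+PJ34 summits lay a median of 63 bp apart (quartiles 27 and 129 bp), and 1345 members (66.9%) had them within 100 bp. In regions of all 4 lists the median was 42 bp and 71.8% were within 100 bp. The merged region spanned a median of 608 bp, and 1835 members (91.3%) were made of 1 peak from each list. The rule itself requires these peaks to overlap, and their median widths were 455 bp in Control and 434 bp in IFNγ 1 h+PJ34. Short distances between the summits are therefore in part built in.

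The heights of the peaks in both lists were only weakly related among the members. Across the 2009 members the percentile in Control and that in IFNγ 1 h+PJ34 had a Spearman correlation of 0.17 over sites, against 0.77 over the 21468 regions of all 4 lists, and the set's narrower range of scores enters this comparison. The IFNγ 1 h+PJ34 peak stood at least 20 percentile points above the Control peak in 476 members, and at least 20 points below it in 359. In the regions of all 4 lists these counts were 1547 and 3289 of 21468. The highest values came from IFNγ 1 h+PJ34, in which 46 members lay above percentile 75, against 7 in Control.

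**Figure D1:**
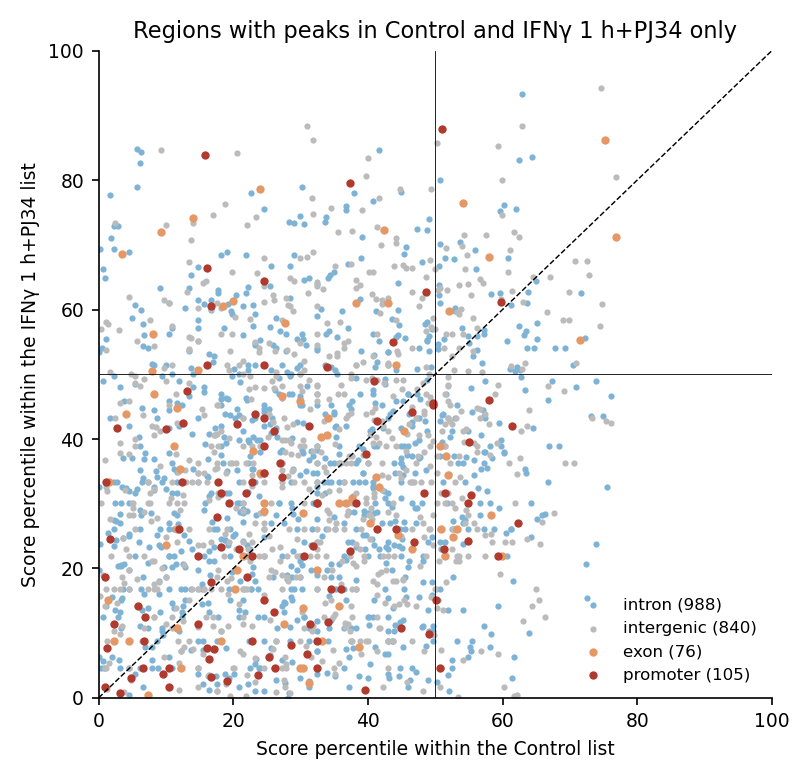
Score percentile of each of the 2009 regions in the Control list (x axis, 0 to 100) and in the IFNγ 1 h+PJ34 list (y axis, 0 to 100), with 1 point per region, coloured by place, and a dashed line of equal percentile. Most points sit below 50 on both axes, 121 lie above 50 on both, and the cloud reaches 94.2 on the y axis but 76.9 on the x axis.

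The share of a list's regions that belonged to the set changed with score. By deciles of the Control list, numbered from 1 for the lowest scores, members made up 7.99% of the regions in decile 1, 10.3% in decile 3, 6.30% in decile 6 and 0.657% in decile 8. Deciles 9 and 10 held 0 members among 4234 and 4312 regions, which allows a share of up to 0.0709% and 0.0696% by 3 counts of the total, and of up to 0.0871% and 0.0855% by the exact 95% intervals. In the IFNγ 1 h+PJ34 list the share was 8.92% in decile 1, 11.8% in decile 3 and 0.0477% in decile 10. These intervals and limits cover counting error only and treat neighbouring regions as independent. Absence from either other list fell with score as well. In decile 1 of the Control list 79.4% of regions had no IFNγ 1 h peak and 70.5% no PJ34 peak, against 0.0472% and 0.0236% in decile 9. The rule used these absences, so the fall in the members' share is a description and not a separate result about the set.

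**Figure D2:**
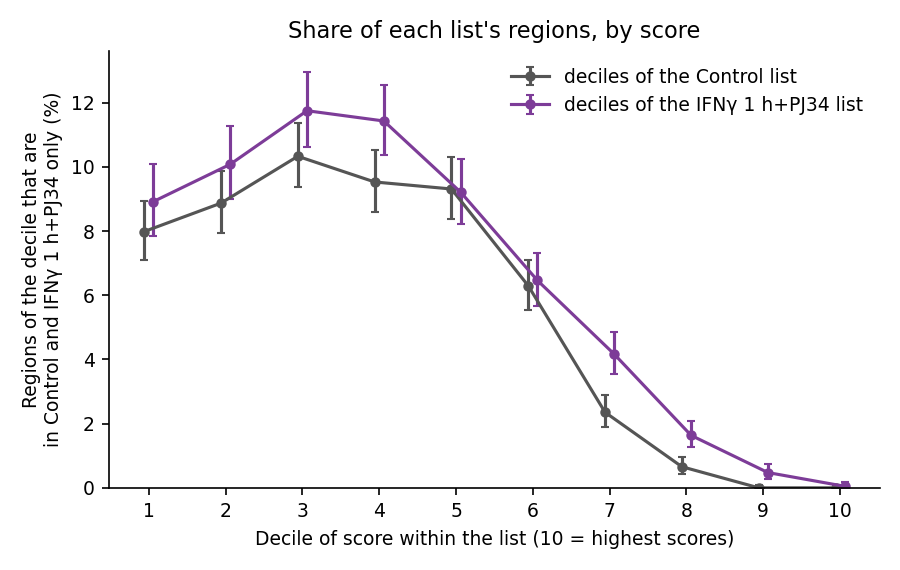
Share of regions in Control and IFNγ 1 h+PJ34 only (y axis, percent) by decile of score of the Control list and of the IFNγ 1 h+PJ34 list (x axis, 10 holds the highest scores), with exact 95% intervals. In both lists the share is highest in decile 3, at 10.3% and 11.8%, and falls to 0 and 0.0477% in decile 10.

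The member whose lower percentile was the highest of the set lay 130 kb upstream of Prdm1, which encodes the transcriptional repressor Blimp-1 (chr10:44588256-44589419, intergenic). Its fold enrichment was 18.3 in Control (percentile 76.9) and 19.0 in IFNγ 1 h+PJ34 (percentile 80.5). No IFNγ 1 h peak came closer than 6.68 kb. The nearest PJ34 peak was 0.197 kb away and at percentile 5.10 of its list, and it overlapped the neighbouring Control peak (fold enrichment 14.3), so that the neighbour was not a member.

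A member in an exon of Tep1, which encodes a telomerase-associated protein, had Parp2 as its nearest start site, 16.7 kb away (chr14:50823275-50826211). Parp2 encodes a DNA damage-activated enzyme of the PARP family. Fold enrichment was 13.1 in Control and 21.4 in IFNγ 1 h+PJ34 (percentiles 75.2 and 86.2), and the nearest IFNγ 1 h and PJ34 peaks were 3.44 and 3.50 kb away. Another member lay closer, in an intron of Parp2 itself and 12.5 kb from the start site (chr14:50819365-50820975), with fold enrichments of 4.96 and 9.42.

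Bmp2, a secreted ligand of the BMP pathway, had a member 71.2 kb upstream of its start site (chr2:133480006-133481706) that was higher in IFNγ 1 h+PJ34. Fold enrichment there was 17.2 in Control and 38.3 in IFNγ 1 h+PJ34, at percentiles 74.7 and 94.2. Both lists without a peak were empty for 14.1 kb (IFNγ 1 h) and 14.0 kb (PJ34) around it. The same order was found in an intron of Mrc1, the mannose receptor of macrophages (chr2:14260957-14263590), with fold enrichments of 7.99 and 30.6 and percentiles of 63.0 and 93.4.

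The Mrc1 locus held 4 members within 50 kb of a start site, and each stood at a higher percentile in IFNγ 1 h+PJ34 than in Control. Beside the 1 just given, the Control percentiles were 36.1, 27.8 and 6.43, and the IFNγ 1 h+PJ34 percentiles 59.8, 53.6 and 44.8 in the same order. Their gaps to the nearest IFNγ 1 h peak ran from 1.61 to 21.2 kb. Neighbouring members share a locus and are not replicates of each other.

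The other members among the 12 highest lay near genes of varied roles. The 1 nearest Dnmt3a, the gene of a de novo DNA methyltransferase, was in an exon of Dtnb (chr12:3779311-3781664), and its fold enrichment was 19.0 in Control and 13.5 in IFNγ 1 h+PJ34. The members nearest Wdr26, a subunit of a ubiquitin ligase, and Gdi2, a regulator of Rab GTPases, were also higher in Control, with fold enrichments of 14.3 against 11.5 and 15.6 against 9.62. The members nearest Hgf, a growth factor, and Sptlc2, a subunit of the enzyme that starts sphingolipid synthesis, had nearly equal values in both lists, 10.6 and 10.8 for Hgf and 10.6 and 10.9 for Sptlc2. Slc16a7, a monocarboxylate transporter, carried an intronic member at 8.41 and 16.9, and C530008M17Rik one at 11.2 and 10.5.

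**Figure D3:**
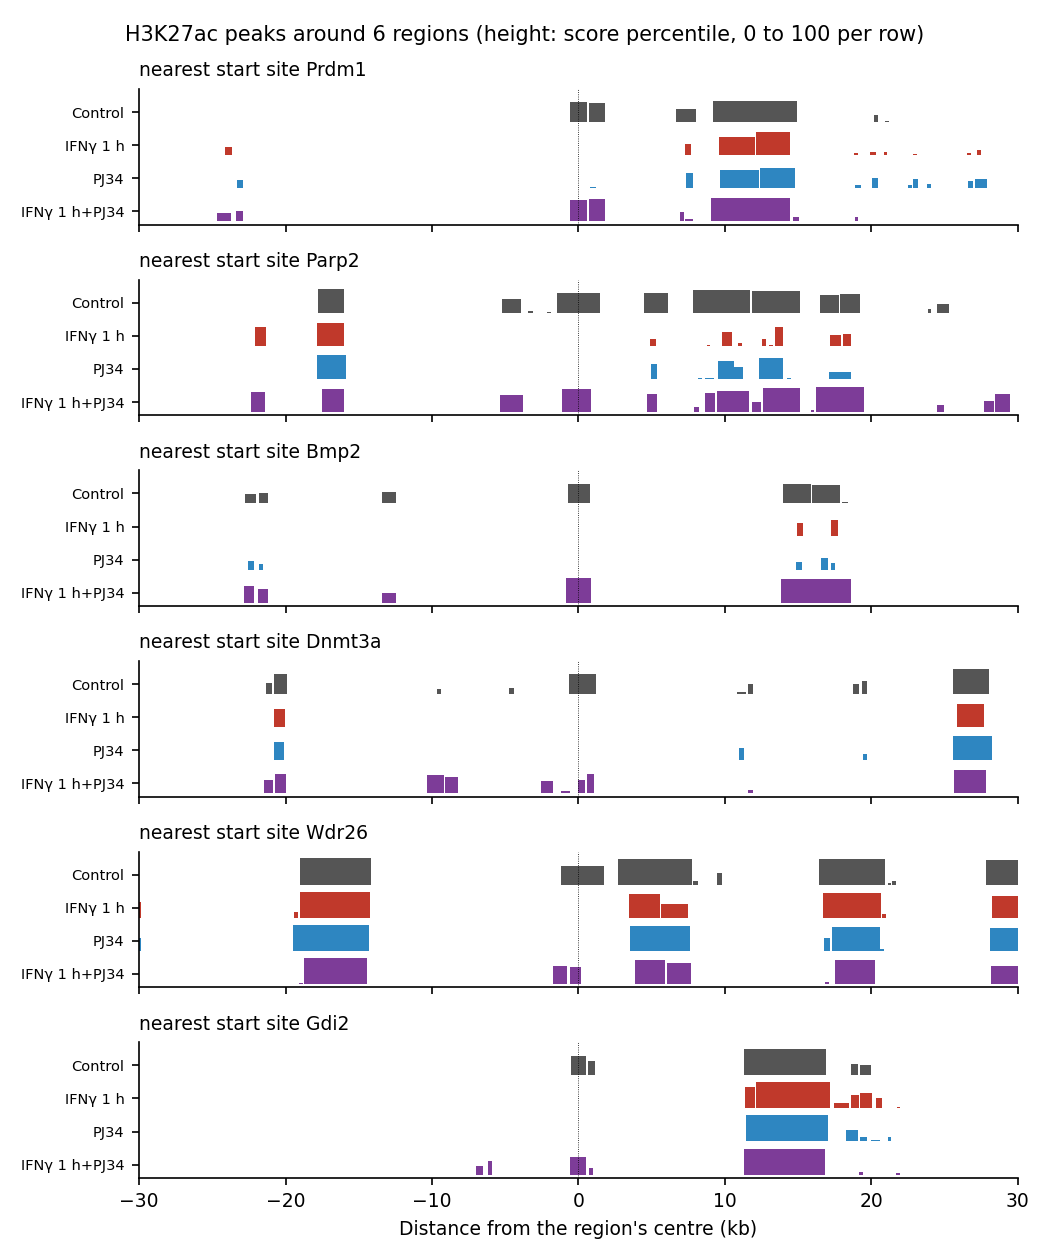
Peaks of the 4 lists within 30 kb of the centre of the 6 members with the highest lower percentile (x axis, kb from the centre), with bar height giving the score percentile from 0 to 100 within each row. At the centre only the Control and IFNγ 1 h+PJ34 rows hold bars, and the gap from a member's edge to the nearest peak of the IFNγ 1 h or PJ34 row runs from 0.197 kb (PJ34 beside Prdm1) to 18.9 kb (IFNγ 1 h beside Dnmt3a).

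Peaks of the absent lists were often near. The median gap from a member to the nearest IFNγ 1 h peak was 6.86 kb and to the nearest PJ34 peak 5.93 kb. In 604 members (30.1%) at least 1 of these lists had a peak within 1 kb, in 85 (4.23%) within 100 bp, and in 725 (36.1%) neither had one within 10 kb. A region with a peak in all 4 lists lay within 10 kb of 1003 members (49.9%).

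The same share can be set beside those of 3 other classes of regions found in exactly 2 lists. Among regions of Control and PJ34 only, 43.2% had a peak of an absent list within 1 kb, among those of IFNγ 1 h and PJ34 only 42.3%, and among those of IFNγ 1 h and IFNγ 1 h+PJ34 only 24.0%. These distances are measured in the same lists that chose the classes, so they are a description and nothing is read from their differences.

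**Figure D4:**
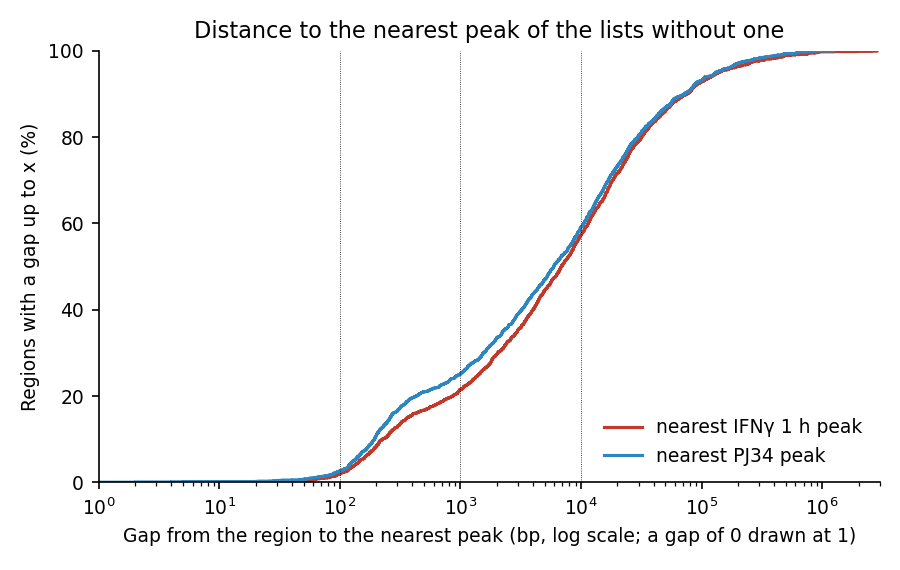
Cumulative share of the 2009 regions (y axis, percent) with a gap up to a given distance (x axis, bp, log scale) to the nearest IFNγ 1 h peak and to the nearest PJ34 peak. At 1 kb the curves stand at 21.6% for IFNγ 1 h and 25.1% for PJ34, and they run close together from there on.

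A few members owed their place to a short gap. In 6 members the nearest peak of an absent list was at most 10 bp away, and their median percentiles were 42.9 in Control and 35.6 in IFNγ 1 h+PJ34. Just outside the rule stood 1 region, whose Control and IFNγ 1 h+PJ34 peaks shared at most 10 bp with a peak of 1 other list, at percentiles 56.8 and 20.1. At the edge of detection, 237 members had a percentile under 5 in at least 1 of their lists.

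The members lay mostly away from start sites, a property the rule did not use. Their leading summit was within 1 kb of a protein-coding start site (a promoter) in 105 members, 5.23% (exact 95% interval 4.29 to 6.29%), in an exon in 3.78%, in an intron in 49.2% and between genes in 41.8%. In regions of all 4 lists the promoter share was 46.0%, and the members were lower by 40.8 points (Newcombe 95% interval of the difference, -41.9 to -39.6). The median distance to a start site was 24.8 kb for the members and 3.12 kb for the regions of all 4 lists.

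The members were also set beside 3 other classes of 2 lists. The 593 regions of Control and IFNγ 1 h only and the 502 of PJ34 and IFNγ 1 h+PJ34 only were not compared. Promoters made up 9.46% of the regions of Control and PJ34 only, which was 4.23 points more than among the members (difference -4.23, interval -5.80 to -2.67). The share in regions of IFNγ 1 h and PJ34 only was 5.63%, and the difference of -0.41 points had an interval from -1.97 to 1.09 that includes 0. In regions of IFNγ 1 h and IFNγ 1 h+PJ34 only it was 3.72% (difference 1.51, interval 0.0209 to 2.91). Among regions with a leading percentile of 25 to 75, a restriction added after the data had been seen, the members stood at 4.45% and the regions of all 4 lists at 26.5% (difference -22.1, interval -23.4 to -20.6).

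**Figure D5:**
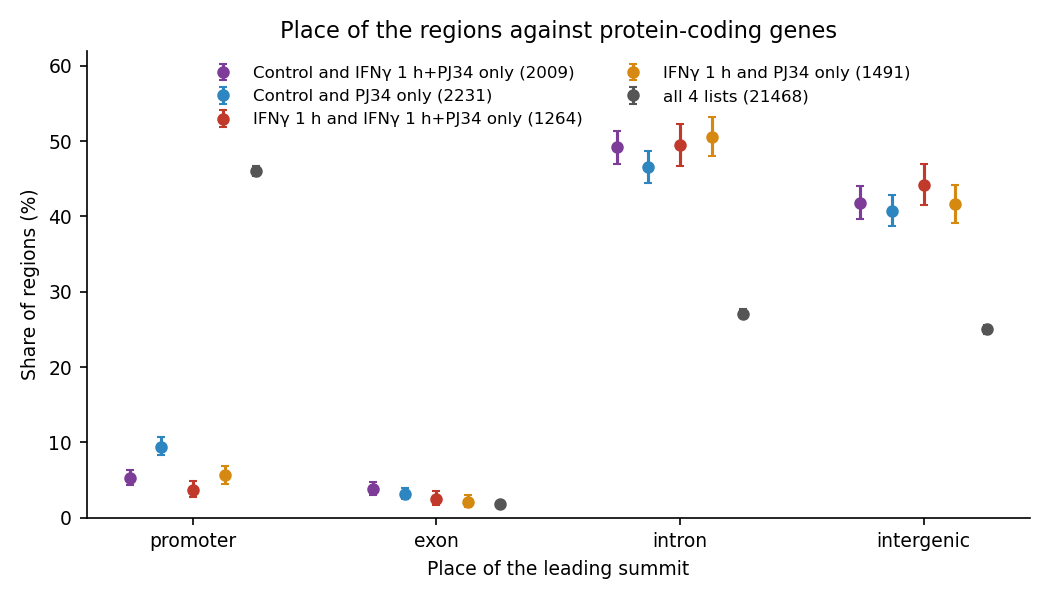
Share of regions (y axis, percent) by place of the leading summit (x axis) for the members, 3 other classes of 2 lists and the regions of all 4 lists, with exact 95% intervals and the number of regions in the legend. The members have 5.23% at promoters, the 3 other classes 3.72 to 9.46% and the regions of all 4 lists 46.0%.

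Of the 105 members at promoters, the highest was at Cd33, an inhibitory sialic acid receptor of myeloid cells (chr7:43543961-43544832, 0.146 kb upstream of the start site). Its fold enrichment was 7.99 in Control and 8.23 in IFNγ 1 h+PJ34. A PJ34 peak at percentile 52.6 began at its very edge with a gap of 0 bp, and the nearest IFNγ 1 h peak was 10.2 kb away. Cd33 thus met the rule only because the PJ34 peak shared no base with it.

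Among the 6 highest promoter members, that of Galnt9, a glycosyltransferase gene, differed most between the lists, with fold enrichments of 6.70 in Control and 23.1 in IFNγ 1 h+PJ34 (chr5:110602519-110604308). The nearest peaks of both absent lists were far, at 48.1 and 48.5 kb. At B4galt4, a galactosyltransferase gene, the values were 6.59 and 10.1, and the 300 bp window at its summit held a GAS match of the stricter form TTCCNGGAA. At Cfap77, a gene for a ciliary protein, they were 8.72 and 5.03, and at Gins2, a gene for a subunit of the replicative helicase, 6.72 and 6.12.

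Ciita, the master regulator of MHC class II genes and a known IFNγ target, had a member at its promoter (chr16:10479315-10481709, 0.051 kb from a start site) and another in an intron 2.16 kb from it (chr16:10482160-10482541). At the promoter the fold enrichment was 6.86 in Control and 5.36 in IFNγ 1 h+PJ34 (percentiles 49.7 and 45.6), and at the second 6.86 and 6.26. Both members had the same nearest IFNγ 1 h peak, 1582 and 750 bp away and at percentile 6.60 of its list. Their nearest PJ34 peak was also shared, 1503 and 671 bp away and at percentile 34.7. Ciita was thus not free of H3K27ac peaks in the absent lists.

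Across a list of 52 IFNγ response genes, of which 51 were matched in the annotation, 14 had a member within 50 kb of a start site (27.5%), against 2250 of all 21840 protein-coding genes (10.3%). Neighbouring genes shared members, so that the 14 genes were reached by 14 members in all. Counted over regions, the share within 50 kb of a response gene was 0.697% of the members (interval 0.381 to 1.17%) and 0.827% of all other regions, with a difference of -0.13 points (interval -0.423 to 0.345). Regions of IFNγ 1 h and IFNγ 1 h+PJ34 only stood at 1.74%, higher than the members by 1.04 points (members minus these regions -1.04, interval -1.97 to -0.29). The gene count and the region count thus differ in direction, and the first was not adjusted for how many regions lie near each gene.

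After Ciita, the response genes with the highest members were Cd74, the invariant chain of MHC class II, and Ccl5, a chemokine. The member 41.0 kb from Cd74 lay in an intron of Rps14 and had fold enrichments of 7.64 in Control and 4.94 in IFNγ 1 h+PJ34. The member 40.1 kb from Ccl5 was nearest to Ccl9, another chemokine gene, and stood at percentile 31.7 of the Control list and 77.3 of the IFNγ 1 h+PJ34 list (fold enrichments 4.27 and 17.0). A PJ34 peak lay 0.117 kb from it.

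A member at the shared start of Gbp4, Gbp8 and Gbp9, guanylate-binding proteins induced by IFNγ, was outside the naming rule and was chosen after its values were seen (chr5:105139036-105139501). Its fold enrichment was 3.24 in Control (percentile 16.6) and 8.13 in IFNγ 1 h+PJ34 (percentile 60.5). An IFNγ 1 h peak lay 0.155 kb away, without a shared base, and the nearest PJ34 peak 11032 bp away.

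Of 15 IFNγ signalling genes, Ifngr1, a receptor chain, and Jak1, a receptor-associated kinase, had a member within 50 kb, 13.3% (interval 1.66 to 40.5%) against 10.3% of all genes. Over regions the members' share was 0.0996% against 0.304% of all other regions (difference -0.205 points, interval -0.293 to 0.0614). The Ifngr1 member, 45.1 kb from the start site, had fold enrichments of 7.13 and 5.43 in Control and IFNγ 1 h+PJ34. The Jak1 member was weak at 2.90 and 2.95.

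Of 16 genes listed for the PARP family, 7 had a member within 50 kb: Parp1, Parp2, Tnks, Tnks2, Parp9, Parp11 and Parp14. This is 43.8% (exact 95% interval 19.8 to 70.1%) against the 10.3% of all protein-coding genes. The list also held Parg and Adprhl2, genes of enzymes that remove ADP-ribose, and neither had a member within 50 kb. This gene count was not adjusted for how many regions lie near each gene, nor were the intervals adjusted for the number of gene lists. Over regions, 9 members (0.448%) and 0.209% of all other regions lay near these genes, a difference of 0.239 points (interval 0.023 to 0.642), and 3 of the 9 members were near Parp2 alone. Parp1, the main target of PJ34, had 2. The 1 in its intron (chr1:180587982-180588778) had fold enrichments of 8.08 in Control and 4.35 in IFNγ 1 h+PJ34, with an IFNγ 1 h peak 0.194 kb and a PJ34 peak 0.115 kb away. The intronic member of Parp11, a mono-ADP-ribosyltransferase gene, had 3.86 and 13.5 with the nearest peak of each absent list 17.2 kb away. A single region 30.6 kb from Parp9 also stood for Parp14 and for Dtx3l, which neighbour it.

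Of 22 macrophage identity genes, 5 had members within 50 kb, 22.7% (interval 7.82 to 45.4%) against 10.3% of all genes. The 11 members near them were 0.548% of the set, against 0.538% of all other regions (difference 0.01 points, interval -0.24 to 0.444). Apart from Mrc1, these were Cebpa, a myeloid transcription factor, Csf1r, the receptor for the macrophage growth factor, Lyz2 and Mitf. The Cebpa member 20.6 kb from the start site was higher in Control, at 16.9 (percentile 75.3) against 5.92 (percentile 42.8), with both absent lists 16.7 kb away. The Csf1r member in an intron had 3.81 and 5.17, and a PJ34 peak 0.057 kb away.

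Of 12 genes for AP-1 and ATF transcription factors, 5 had a member within 50 kb (Fos, Fosb, Jun, Jund and Atf3), 41.7% (interval 15.2 to 72.3%) against 10.3% of all genes, and of 18 cytokine and chemokine genes 1 did, Ccl9. Over regions, 0.299% of the members and 0.286% of all other regions were near AP-1 and ATF genes (difference 0.013 points, interval -0.156 to 0.367). Near cytokine and chemokine genes lay 2 members (0.0996%) and 0.524% of all other regions, a difference of -0.425 points (interval -0.522 to -0.156). The Fos member, 5.44 kb from the start site, had fold enrichments of 14.7 in Control (percentile 76.2) and 5.81 in IFNγ 1 h+PJ34 (percentile 42.5). Fosb showed the same order, at 13.2 and 5.17. The Jun member 36.8 kb from the start site was nearly equal in both lists, at 4.68 and 4.89. Peaks of IFNγ 1 h and PJ34 lay 0.38 and 0.187 kb from the Fos member, but 7.93 and 7.69 kb from the Fosb member.

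Markers of other cell types also had members within 50 kb, beside the 10.3% of all genes. These were 2 of 10 neutrophil genes (20.0%), 1 of 8 B cell genes (12.5%) and 1 of 10 T and NK cell genes (10.0%). Further ones were 1 of 8 stromal genes (12.5%), 0 of 8 mast cell and erythroid genes and 2 of 7 dendritic cell genes (28.6%). Over regions, the members' difference from all other regions had an interval that includes 0 for each list but the stromal one. There 2 members, both near Pdgfrb, made up 0.0996%, against 0.0169% of all other regions (difference 0.0826 points, interval 0.0088 to 0.3455). In the 4 lists themselves, all 22 macrophage genes had a promoter peak in every list. Neutrophil markers had 1 to 3 of 10, with Ly6g, Mpo and Elane without one in every list, and T and NK cell markers had 0 of 10. Dendritic cell markers had a promoter peak in 3 of 7 in Control and IFNγ 1 h+PJ34 and in 2 of 7 in IFNγ 1 h and PJ34, where Clec9a had none. B cell markers had 1 of 8 in every list, mast cell and erythroid markers 1 to 2 of 8 and stromal markers 0 to 1 of 8. The part of other cells in the members' peaks was not tested.

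Members lay close together at some loci. No such count is given for all regions or for another class, so it describes the set alone. Side-by-side pieces of 1 stretch count as separate members, such as chr8:128084082-128084650 and chr8:128084730-128085154 upstream of Nrp1. Chaining members up to 50 kb apart gave 1507 loci, of which 1140 held a single member and 93 held 3 or more (321 members). Counted by gene, 1133 members lay in 863 gene bodies, with 6 in Chn2, a Rac-regulating GTPase activator, and 5 each in Fggy, Hdac9, Pip4k2a, 1700025G04Rik and Arhgap24. Hdac9 encodes a histone deacetylase and Pip4k2a a lipid kinase. These 6 gene bodies spanned 156 to 870 kb.

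The largest locus, 274 to 323 kb upstream of Nrp1, a co-receptor for semaphorins and VEGF, held 7 members within 50.1 kb (chr8:128035080-128085154). Fold enrichment there ran from 3.11 to 15.3 in Control and from 2.60 to 9.46 in IFNγ 1 h+PJ34. Only 1 of the 15 regions of the locus had a peak in all 4 lists. The 5 members at Msl3, a subunit of a histone acetyltransferase complex (chrX:168639424-168660006), were more even, at 4.54 to 8.22 and 4.89 to 8.07, and none of the 7 regions there was in all 4 lists. The remaining locus of the 4 largest, with 5 members, lay across Trim14 and Coro2a (chr4:46507001-46559512).

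The second locus, with 6 members in 28.1 kb (chr14:53054683-53082779), stood far from any peak of the absent lists, at 747 to 774 kb from IFNγ 1 h and 604 to 631 kb from PJ34. All 6 were higher in IFNγ 1 h+PJ34, with percentiles of 50.1 to 71.1 there and 4.45 to 44.2 in Control. In the annotation 3 of them lay over T cell receptor alpha V segments, Trav13d-4, Trav14d-3-dv8 and the pseudogene Trav15d-3. T cell markers had no promoter peak in any list. These segments belong to a family with near-identical copies, and the authors kept uniquely mappable reads. Any part of read placement in these peaks was not tested.

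On the X chromosome the set was somewhat larger than elsewhere. It held 83 of the members (4.13%, interval 3.30 to 5.10%) against 2.59% of all other regions, a difference of 1.54 points (interval 0.741 to 2.51). Of all regions on the X, 5.68% were members, while the 19 autosomes ranged from 2.69 to 4.37%. The X share of all regions with a peak was 2.79% in Control and 2.81% in IFNγ 1 h+PJ34, against 2.44% in IFNγ 1 h and 2.63% in PJ34, so the carrying lists as a whole stood higher, and the part of this in the result was not tested. Regions of Control and PJ34 only had 3.54% on the X, and the difference from the members (0.59 points, interval -0.568 to 1.77) includes 0.

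The base composition of the members was near that of the 3 other classes of 2 lists compared. In 300 bp windows at the leading summit the median GC content was 45.3% (quartiles 41.0 and 49.7%). It was 46.7% in regions of Control and PJ34 only, 44.0% in those of IFNγ 1 h and IFNγ 1 h+PJ34 only and 44.3% in those of IFNγ 1 h and PJ34 only, against 52.3% in regions of all 4 lists. Windows more than 50% covered by repeats made up 10.8% of the members and 15.0% of the regions of IFNγ 1 h and PJ34 only (difference -4.27, interval -6.57 to -2.03). In regions of all 4 lists the share was 5.52%, and the members were higher by 5.23 points (interval 3.91 to 6.69), while all other regions stood at 9.72% (difference 1.03, interval -0.278 to 2.48).

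The GAS motif TTCNNNGAA was in 9.86% of the members' windows (interval 8.59 to 11.2%) and in 8.85% of all regions. The difference from all other regions was 1.04 points, with an interval from -0.209 to 2.45 that includes 0. The control GAANNNTTC was in 7.47% and 7.02%. Regions of Control and PJ34 only held the GAS in 8.02%, less than the members by 1.83 points (interval 0.115 to 3.57), and regions of IFNγ 1 h and IFNγ 1 h+PJ34 only in 11.4% (members minus these -1.54, interval -3.77 to 0.604).

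The partial interferon response element GAAANNGAA and the C/EBP motif TTGCNNAA were more frequent in the members than in all other regions, by 2.19 points each (intervals 0.809 to 3.71 and 0.774 to 3.74). The first was in 12.1% of the members and 9.99% of all regions, and the second in 12.8% and 10.7%. Regions of IFNγ 1 h and IFNγ 1 h+PJ34 only held them in 11.2% and 12.7%, and both differences from the members had intervals that include 0. For GAAANNGAA the members were higher, with intervals above 0, than Control and PJ34 only (9.68%) and IFNγ 1 h and PJ34 only (9.73%). For TTGCNNAA this held against the former (10.6%), and the interval against the latter (12.0%) includes 0. Outside promoters, a restriction added after the data had been seen, the differences from all other regions were 1.25 points (interval -0.188 to 2.82) and 0.937 points (interval -0.518 to 2.54), and both intervals include 0. For GAAANNGAA the interval of the difference was 0.462 to 4.57 points within windows of 40 to 50% GC and 0.112 to 3.35 points within leading percentiles of 25 to 75, so it was lost under 1 of the 3 restrictions. For TTGCNNAA these values were 0.784 (interval -1.09 to 2.90) and 1.37 (interval -0.196 to 3.11), and every restriction gave an interval that includes 0.

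For AP-1, TGANTCA, the members (8.41%) were close to all regions (8.04%) and below the regions of IFNγ 1 h and PJ34 only (12.3%), by 3.93 points (difference -3.93, interval -6.03 to -1.89). Outside promoters that difference was -4.21 (interval -6.40 to -2.10), within windows of 40 to 50% GC -4.46 (interval -7.43 to -1.61) and within leading percentiles of 25 to 75 -4.07 (interval -6.51 to -1.74). The other motifs were in similar shares of the members and of all regions: 9.86% and 9.21% for GGAANNGAA, 1.99% and 2.19% for GAGGAAGT, 0.846% and 1.04% for GGGANTTCC, and 3.68% and 3.96% for CACGTG. The intervals are not adjusted for the number of motifs and classes compared, and their letters overlap in part, since GGAANNGAA and GAAANNGAA can match the same bases.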

How the data were processed

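H3K27ac ChIP-seq and input reads of 2 replicates per condition were aligned by the authors to mm10 with Bowtie. Samtools and Picard were used to keep uniquely mappable reads of sufficient quality. Peaks were called in each replicate with MACS at a relaxed p of 0.01 against input. Peaks found in both replicates made up the list of a condition, so the 4 deposited lists hold no value per replicate. The authors' files give a whole-number score of 10 to 1000, the fold enrichment as a ratio, and −log10 p- and q-values, beside the summit's position within the peak, all as the authors deposited them. The files hold no read counts, and sequencing depth is unknown, so no interval for depth is given.

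Groups followed the sample titles. Peaks sharing at least 1 bp were merged, and a region's summit was that of its peak with the highest score percentile, ranked by −log10 p within its list, of which the score is a coarser form. Promoters were summits within 1 kb of a protein-coding start site of GENCODE M21 (basic set, 21840 genes), then exons, introns and intergenic sequence. Motifs were searched in 300 bp windows. Shares carry exact Clopper-Pearson 95% intervals and differences Newcombe intervals, limited to counting error and to regions taken as independent. The functions were tested on simulated data. Python 3.11.15, pandas 2.3.3, numpy 2.4.6, scipy 1.17.1, statsmodels 0.14.6 and matplotlib 3.10.9 were used.

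The members, gene lists and motifs were chosen with earlier results of these data known. Named were the 12 members with the highest lower percentile of both lists, the 6 such members at promoters, the 4 loci with most members, and up to 3 genes per list with a member within 50 kb. Of the first 6 members off chromosome 18 with a window clear of untranslated regions, which left out the one beside Dnmt3a, 5 sequences are shown. One named member is not reported here. Alternatives were other overlaps, thresholds, list sizes, distances, windows and a stricter motif. Restrictions by GC content, place and score, and the 4 GAS sequences, were chosen after seeing the data. RNA-seq and other assays of the study were not analysed here.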

Additional observations from a re-analysis of the deposited data

Results flagged for a closer look

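The set itself was flagged for its direction, which the rule fixed. In 2009 regions a peak was listed in Control and IFNγ 1 h+PJ34 and in neither IFNγ 1 h nor PJ34. Listing of a peak thus changed with IFNγ in opposite directions without and with PJ34. The reverse pattern, peaks in IFNγ 1 h and PJ34 only, held 1491 regions, and Control and PJ34 only held 2231. The difference between the conditions in the 2009 regions was not tested, since there is 1 list per condition, and the rule that chose the regions fixes it.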

How the results depend on the processing

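Of 41 alternative values over 6 results, 31 fell inside the main value's interval or, for the number of regions, within 1.5 times of it. Merging peaks up to 1 kb apart left 1234 regions, of which 1087 were in the main set, and put the Control and IFNγ 1 h+PJ34 summits 91.0 bp apart. The higher-scoring 50% of each list gave 916 regions, of which only 121 were in the main set (6.02% of it and 13.2% of the 916), with 7.31% at promoters, a median GC content of 46.0% and a summit distance of 46.0 bp. In that setting a region counts as absent where its peak in another list scores below that list's median. Promoters taken as 2.5 kb rose to 9.51%, the share near a response gene fell to 0.199% within 10 kb, and the GAS share was 7.02% in 200 bp windows and 0.946% for TTCCNGGAA, all changes that follow from a wider or narrower definition. No paired analysis was possible because the authors joined both replicates into 1 list per condition, which also means that a replicate cannot be left out. Without replicate lists, a peak missing from a list and a peak just under its threshold cannot be told apart.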
